A study of Homo sapiens with 6 samples.

Results

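Cyclins, cyclin-dependent kinases (CDKs), CDK inhibitors and the enzymes that switch CDKs on and off were examined in SKOV3 cells kept for 48 h with fenbendazole at 1 µM, against SKOV3 cells kept with the solvent DMSO. The 51 genes were taken by symbol from a deposited table of 61552 genes, and each symbol matched 1 row. SKOV3 is an established human ovarian cancer line, and fenbendazole is a veterinary anthelmintic of the benzimidazole class, whose members bind tubulin. Poly(A) RNA was sequenced in 3 libraries per group, fenbendazole 7, 8 and 9 and DMSO 10, 11 and 12, named by the numbers in their titles. The labels give no genetic change to the cells and do not say that the libraries came from separate cultures, so the spread between them may be technical.

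A CDK is active only with a cyclin bound. In textbook order, D cyclins with CDK4 or CDK6 act in G1 and phosphorylate the RB protein, E cyclins and then cyclin A with CDK2 carry cells into and through S phase, and B cyclins with CDK1 drive mitosis. WEE1 and PKMYT1 hold CDKs off by phosphorylation, CDC25 phosphatases remove that mark, and INK4 and CIP/KIP proteins inhibit the kinases directly. Another branch of the family (CDK7, CDK8, CDK9, CDK12, CDK13 and CDK19 with cyclins C, H, K and T) acts on RNA polymerase II and Mediator, and cyclins L act in splicing, all without a tie to a cycle phase.

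The members that rose with fenbendazole were 12 of G1/S, S phase, G2 and mitosis, together with CCND1. In RNA from whole cultures, a larger share of cells in a phase and more RNA per cell cannot be told apart. Of 49 members with enough counts to be tested, 13 rose and 0 fell at a Benjamini-Hochberg adjusted p of 0.05 in edgeR's quasi-likelihood test. Over all 17363 tested genes 540 rose (3.11%), 160 fell (0.921%) and 4.03% were called in either direction (with upper-quartile scaling in place of TMM, 455 rose and 231 fell). Of 11 members of G2 and mitosis 8 rose, of 5 members of G1/S and S phase 4 rose, and of 5 G1 members 1 rose. None of the 13 transcription and splicing members, 10 other members and 5 tested inhibitors passed. At an unadjusted p of 0.05, 2, 0 and 0 of them were higher and 2, 1 and 1 lower. The share of all genes at that unadjusted threshold was not counted, so these counts cannot be read as a result about the members. DESeq2 called 1, 0 and 0 higher and 0, 1 and 1 lower. The median log2 fold change, fenbendazole over DMSO, was 1.66 in the G2/M group and 1.59 in the G1/S and S group. It was -0.02 in the G1 group, 0.04 for inhibitors, 0.21 for transcription and splicing members, -0.01 for the others and -0.06 over all tested genes. Upper-quartile scaling placed the median of all genes at -0.13, so medians this close to 0 have no settled sign. The difference between these role groups was not tested. With 1 library left out in turn, 6 of the 13 members were called every time, and the other 7 (CCND1, CCNE2, CDK2, CDK1, CKS1B, CDC25C and WEE1) missed the threshold in some of these fits, at adjusted p of 0.0516 to 0.230. Among all 49 members 18 were higher and 5 lower at an unadjusted p of 0.05, again with no share of all genes beside them. With limma-voom 14 members were higher and 0 lower, beside 594 higher and 156 lower of all 17363 genes (4.32% in all). DESeq2, which called 6.66% of all genes higher and 4.66% lower (11.3% in all), called 16 members higher and 2 lower.

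The libraries held 14127578 to 17452459 counts with fenbendazole and 13170775 to 22128930 in DMSO, so that 3 counts correspond to 0.132 to 0.223 CPM, the count scaled to library size by TMM. Library DMSO 11 stood apart. Across 16975 genes its deviation from the mean of all libraries had a correlation of 0.748 with the GC content of the transcript, and the other 5 libraries had -0.355 to -0.137 (genes are not independent replicates). Since that mean includes DMSO 11, the negative values of the other 5 libraries are not independent of the value of DMSO 11. Without DMSO 11, 22.3% of 17689 genes were called, 13.1% higher and 9.23% lower, and of the same 49 members 20 were higher and 4 lower. All 13 members called with 6 libraries were called without it. Since the control that deviated most is then left out, the spread between controls may be understated in that fit. With offsets for the GC content and length of transcripts, an adjustment for all 6 libraries added after the data were seen, 12.1% of 16975 genes were higher and 9.54% lower (21.6% in all), and 17 members were higher and 4 lower. Of the markers of SKOV3 as an ovarian carcinoma line, ERBB2, at 4394 ± 212 CPM with fenbendazole and 10757 ± 4454 CPM in DMSO (SD, n = 3 each), KRT7, KRT8, KRT18, KRT19, EPCAM and PAX8 were detected at over 40 CPM in both groups. ERBB2 itself was called lower (log2 fold change -1.29 ± 0.265, adjusted p = 0.0422), with DMSO 11 far above the other controls, and was -0.89 (adjusted p = 1.24e-07) without that library. KRT7, at 228 ± 2.92 CPM with fenbendazole and 110.2 ± 62.7 CPM in DMSO, did not pass with all libraries (log2 fold change 1.05 ± 0.348, adjusted p = 0.148) and was 1.63 (adjusted p = 1.95e-09) without DMSO 11. MUC16 was low, at 2.14 ± 0.174 CPM with fenbendazole and 2.82 ± 0.353 CPM in DMSO, as was WT1, at 0.748 ± 0.299 CPM with fenbendazole and 0.588 ± 0.587 CPM in DMSO. Of the markers of other cells, the T cell marker CD3E had 0 counts in all libraries. PTPRC had means of 0.297 CPM with fenbendazole and 0.189 CPM in DMSO, and DCN 0.0722 and 0.0991 CPM. The other 3 were detected and tested. COL1A1 was at 39.9 ± 1.24 CPM with fenbendazole and 51.6 ± 25.1 CPM in DMSO. CD68 was at 15.1 ± 0.885 and 15.1 ± 3.33 CPM, and PECAM1 at 12.2 ± 0.427 and 10.3 ± 1.10 CPM, in the same order. None of these 3 passed the threshold.

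**Figure D1:**
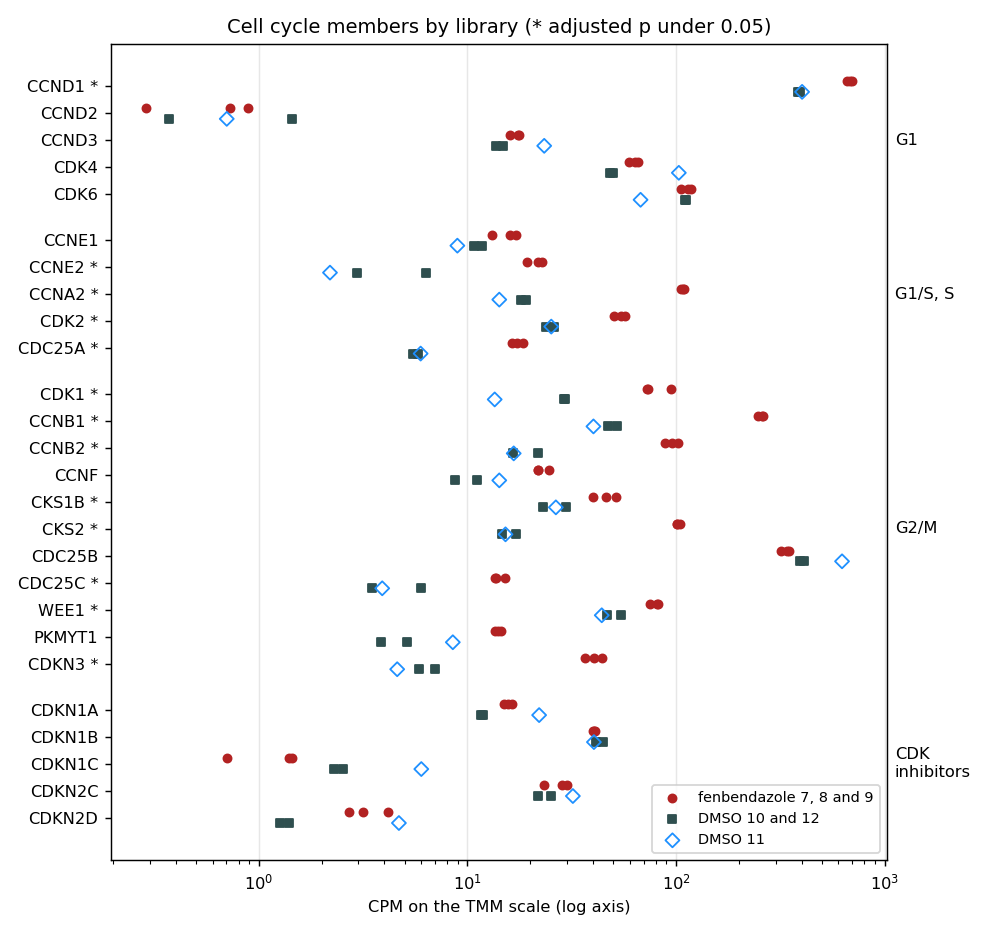
CPM on a log axis for the 26 tested members of the cell cycle groups, 1 point per library, with fenbendazole above DMSO in each row and DMSO 11 as an open diamond. The G1/S, S and G2/M members with an asterisk lie to the right of all DMSO points, and DMSO 11 lies apart from DMSO 10 and 12 for CDK4, CDC25B and CDK1.

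Both B cyclins rose to a similar extent. CCNB1 encodes cyclin B1, the main partner of CDK1 at entry into mitosis (ENSG00000134057, chromosome 5, 69167135 to 69178245, GRCh38). It had 258, 261 and 248 CPM in fenbendazole 7, 8 and 9, against 51.9, 40.2 and 47.5 CPM in DMSO 10, 11 and 12. The groups were far apart, and the log2 fold change was 2.46 ± 0.140 (standard error, SE; adjusted p = 0.000521). CCNB2, the B cyclin found at the Golgi (ENSG00000157456, chromosome 15, 59105126 to 59125045), stood at 95.7, 88.5 and 102 CPM with fenbendazole and 21.7, 16.7 and 16.5 CPM in DMSO. Every treated library lay above every control, with a log2 fold change of 2.38 ± 0.166 (adjusted p = 0.000849). CCNF encodes cyclin F, which binds no CDK and instead brings substrates to an SCF ubiquitin ligase. Its levels were 21.7, 24.5 and 21.8 CPM with fenbendazole and 11.1, 14.2 and 8.70 CPM in DMSO. The groups did not overlap, but the log2 fold change of 0.99 ± 0.218 missed the threshold narrowly (adjusted p = 0.0519), DESeq2 called it, and without DMSO 11 it was 1.19 (adjusted p = 0.000107).

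CDK1, the kinase that B cyclins activate, also rose. It was measured at 72.4, 73.8 and 94.6 CPM with fenbendazole and 29, 13.5 and 29.4 CPM in DMSO (ENSG00000170312, chromosome 10, 60778331 to 60794852). Fenbendazole 9 was the highest library and DMSO 11 the lowest, well under the other controls. The log2 fold change was 1.75 ± 0.304 (adjusted p = 0.0221), and it was 1.47 without DMSO 11. CDKN3 encodes a phosphatase that removes the activating phosphate from CDKs (ENSG00000100526, chromosome 14, 54396849 to 54420218). It had the largest log2 fold change of all members with 6 libraries (CKS2 had it without DMSO 11), with 36.5, 40.5 and 44.1 CPM in treated libraries and 7.02, 4.61 and 5.88 CPM in controls, a log2 fold change of 2.79 ± 0.212 (adjusted p = 0.00103).

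The CKS subunits, small proteins that dock CDK complexes onto phosphorylated substrates, both rose. CKS2 (ENSG00000123975, chromosome 9, 89311195 to 89316703) had 101, 101 and 105 CPM with fenbendazole and 17.2, 15.2 and 14.7 CPM in DMSO, a difference of 6.52-fold (adjusted p = 0.000485). CKS1B, which also helps the ubiquitin ligase SKP2 recognise p27 (ENSG00000173207, chromosome 1, 154974653 to 154979251), had 39.9, 51.7 and 46.2 CPM in treated and 29.6, 26.5 and 23.1 CPM in control libraries. Its difference was 1.74-fold, just past the threshold (adjusted p = 0.048). As a share of the summed FPKM of both genes, CKS2 made up 74.3% ± 2.27 with fenbendazole and 43.4% ± 1.48 in DMSO (SD, n = 3 each), so the more abundant of the pair was CKS2 in every treated library and CKS1B in every control. FPKM, which the authors deposited, divides by gene length and so allows levels of different genes to be compared. These families were set up after the values had been seen, and their shares carry no test.

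Of the phosphatases that activate CDK1, CDC25C rose and CDC25B did not pass. CDC25C, a phosphatase that acts on CDK1 at mitotic entry (ENSG00000158402, chromosome 5, 138285269 to 138338355), had 13.6, 13.8 and 15.1 CPM with fenbendazole and 5.96, 3.91 and 3.50 CPM in DMSO. All treated libraries were higher than all controls, and the log2 fold change was 1.66 ± 0.254 (adjusted p = 0.0136). CDC25B, which starts CDK1 activation, had 319, 349.6 and 339 CPM in treated and 410.3, 625 and 392 CPM in control libraries. The groups did not overlap, yet the log2 fold change of -0.50 ± 0.192 did not pass (adjusted p = 0.195). DMSO 11 was the highest control by far, and without it the value was -0.25 (adjusted p = 0.0119).

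Both kinases that inhibit CDK1 were higher in every treated library than in any control, and WEE1 passed the threshold. WEE1, the nuclear kinase that places the inhibitory phosphate on CDK1 and CDK2 (ENSG00000166483, chromosome 11, 9573670 to 9593457), stood at 81.2, 75.4 and 82.1 CPM with fenbendazole and 54.5, 44.1 and 46.5 CPM in DMSO. Its log2 fold change was 0.72 ± 0.137 (adjusted p = 0.0306), and with offsets for GC content and length it was 0.41 (adjusted p = 0.0881), which did not pass. PKMYT1, its membrane-bound relative, had 14.4, 14.1 and 13.6 CPM in treated and 5.13, 8.51 and 3.87 CPM in control libraries. Here the treated libraries lay close together above all controls, and the log2 fold change of 1.25 ± 0.301 did not pass (adjusted p = 0.067). Without DMSO 11 it was 1.64 (adjusted p = 4.76e-05), and DESeq2 also called it. Thus 10 of 11 G2/M members had no overlap between groups with fenbendazole higher, and the remaining one, CDC25B, had none with fenbendazole lower. Over all tested genes 17.0% had no overlap with fenbendazole higher and 15.5% with fenbendazole lower.

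Promoters of G2/M members were inspected because genes of these phases are known to share control elements. Many of them carry a cell cycle genes homology region (CHR, letters TTTGAA), bound by MuvB complexes, often near CCAAT boxes bound by NF-Y, and genes of G1/S carry E2F sites. RefSeq promoter windows (GRCh38.p14, 250 bases before to 50 after the annotated start) matched 44 of 51 members, 9 of them of the G2/M group. The CHR word and the CCAAT word were searched on both strands. An E2F match was TTCCCGC as the first word searched, or TTCGCGC as the second. TTGCCGC was the third word searched for E2F. TTGGCGC was the fourth, again on both strands, and words could overlap. TTTGAA was in 6 of 9 G2/M promoters and in 10.8% of 16901 promoters of tested genes (15.2% of all 35116). CCAAT was in 7 of 9 and in 34.6%, both words together were in 6 of 9 and in 4.25%, and an E2F word was in 4 of 9 and in 18.5%. In the transcription and splicing group, TTTGAA was in 2 of 13 promoters and CCAAT in 6 of 13. A match is a description of letters and not evidence of binding. The promoters below belong to the 6 members called in every fit that left out 1 library, and to CKS1B for comparison with CKS2. They are given 5′ to 3′ on the strand of the gene with the searched words in capitals (a word on the other strand reads as its complement, such as TTCAAA or ATTGG).
CCNB1, chr5:69166900-69167199, plus strand: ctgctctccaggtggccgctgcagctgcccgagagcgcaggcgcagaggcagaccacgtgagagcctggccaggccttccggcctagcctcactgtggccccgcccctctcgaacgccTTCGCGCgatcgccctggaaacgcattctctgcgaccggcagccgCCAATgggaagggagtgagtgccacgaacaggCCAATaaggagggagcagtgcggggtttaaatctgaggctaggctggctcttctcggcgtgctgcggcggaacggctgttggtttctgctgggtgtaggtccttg
CCNB2, chr15:59104896-59105195, plus strand: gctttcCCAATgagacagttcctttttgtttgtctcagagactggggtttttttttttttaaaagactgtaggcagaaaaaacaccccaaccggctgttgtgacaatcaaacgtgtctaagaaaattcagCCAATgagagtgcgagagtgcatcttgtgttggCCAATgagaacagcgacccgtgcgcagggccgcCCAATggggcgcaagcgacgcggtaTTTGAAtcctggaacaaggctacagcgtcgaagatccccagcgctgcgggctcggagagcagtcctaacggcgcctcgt
CKS1B, chr1:154974431-154974730, plus strand: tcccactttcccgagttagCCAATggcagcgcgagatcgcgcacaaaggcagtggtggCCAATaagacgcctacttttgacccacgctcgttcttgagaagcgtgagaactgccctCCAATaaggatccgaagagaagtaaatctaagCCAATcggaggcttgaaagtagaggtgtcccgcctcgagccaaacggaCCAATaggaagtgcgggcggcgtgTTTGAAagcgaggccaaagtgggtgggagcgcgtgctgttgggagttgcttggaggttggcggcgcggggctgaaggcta
CKS2, chr9:89310945-89311244, plus strand: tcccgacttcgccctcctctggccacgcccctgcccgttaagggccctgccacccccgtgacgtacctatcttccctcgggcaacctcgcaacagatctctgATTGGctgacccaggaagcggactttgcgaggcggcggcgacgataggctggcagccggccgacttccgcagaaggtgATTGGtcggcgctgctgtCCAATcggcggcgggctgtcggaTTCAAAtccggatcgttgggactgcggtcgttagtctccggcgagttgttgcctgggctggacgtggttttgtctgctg
CDKN3, chr14:54396757-54397056, plus strand: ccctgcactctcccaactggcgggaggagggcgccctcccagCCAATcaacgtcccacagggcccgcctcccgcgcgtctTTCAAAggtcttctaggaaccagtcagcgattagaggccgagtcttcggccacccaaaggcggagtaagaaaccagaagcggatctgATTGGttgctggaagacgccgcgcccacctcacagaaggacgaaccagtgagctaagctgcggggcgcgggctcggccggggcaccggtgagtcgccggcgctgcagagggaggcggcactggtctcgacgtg
CCNA2, chr4:121823834-121824133, minus strand: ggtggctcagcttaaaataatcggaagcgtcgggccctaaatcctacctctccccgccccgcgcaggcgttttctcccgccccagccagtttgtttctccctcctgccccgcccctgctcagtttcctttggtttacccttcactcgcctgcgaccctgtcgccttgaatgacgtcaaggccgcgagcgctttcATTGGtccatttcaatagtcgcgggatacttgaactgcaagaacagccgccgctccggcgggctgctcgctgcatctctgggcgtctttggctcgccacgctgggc
CDC25A, chr3:48188368-48188667, minus strand: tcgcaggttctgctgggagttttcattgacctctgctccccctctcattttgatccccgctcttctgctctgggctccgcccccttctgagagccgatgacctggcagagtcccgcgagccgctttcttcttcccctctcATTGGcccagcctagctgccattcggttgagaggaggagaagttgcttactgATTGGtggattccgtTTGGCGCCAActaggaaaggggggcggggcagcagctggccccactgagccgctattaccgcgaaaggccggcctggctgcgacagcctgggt

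Positions are counted to the first printed base of a word, with -1 just before the start. In CCNB2 the CHR word stood at -29 and the nearest CCAAT at -54, in CKS1B at -30 and -54, and in CKS2 at -29 and -52, where the CHR word was on the other strand. CCNB1 held CCAAT words at -55 and -87 and no TTTGAA in this window, and CDKN3 held TTTGAA at -170. Words that differ from TTTGAA by a letter were not searched, so a window without TTTGAA may still hold a CHR. CCNA2 held a single CCAAT word at -56, on the other strand, and CDC25A held overlapping E2F words at -43 and -40. How these words relate to the fold changes was not tested. CKS1B and CKS2 both held a CHR word and a CCAAT word close to the start, and their log2 fold changes were 0.80 ± 0.171 and 2.70 ± 0.137. CDC25B, the G2/M member with a negative log2 fold change, held E2F words at -145 and -91 and no TTTGAA or CCAAT. CDC25C, which rose (log2 fold change 1.66 ± 0.254), also held no TTTGAA or CCAAT in its window, and had an E2F word at -170. A single window per gene was read, so words outside it or near another start would be missed.

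**Figure D2:**
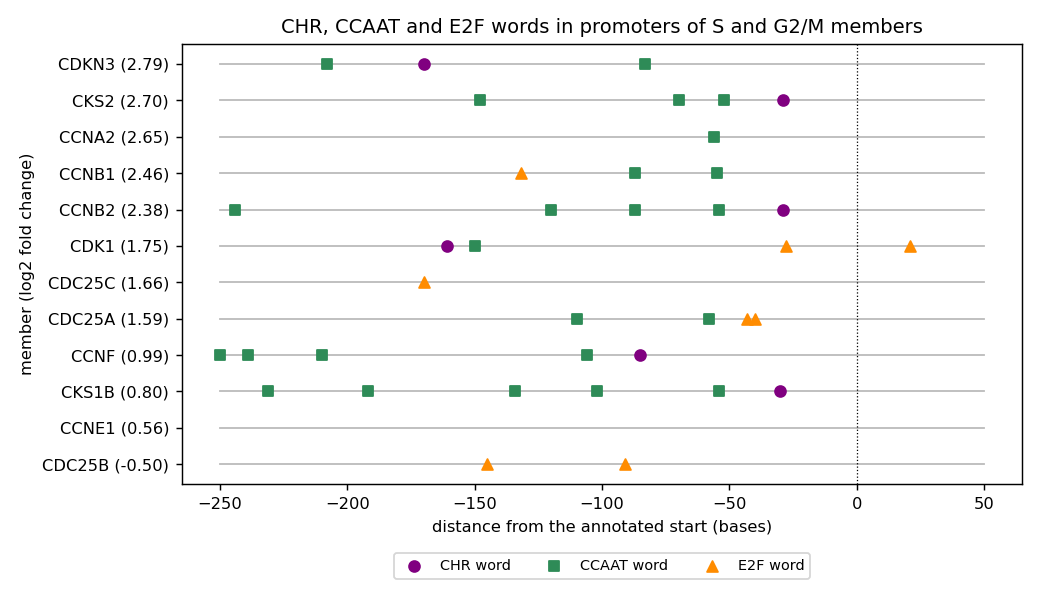
Positions of the CHR, CCAAT and E2F words relative to the annotated start, in bases, for the 12 G1/S, S and G2/M members with a promoter window, ordered from the largest to the smallest log2 fold change (in brackets). CCAAT words lie between -58 and -52 in 6 promoters, CHR words near -30 in 3 of them, and CCNE1 has none of the words.

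Among members of G1/S and S phase, CCNA2, CCNE2, CDK2 and CDC25A rose and CCNE1 did not pass. CCNA2, cyclin A2, which works with CDK2 in S phase and with CDK1 in G2 (ENSG00000145386, chromosome 4, 121816444 to 121823883), had 105, 108 and 109 CPM with fenbendazole and 18.1, 14.2 and 19.2 CPM in DMSO. The difference was 6.27-fold, with a log2 fold change of 2.65 ± 0.159 (adjusted p = 0.000671). CCNE2, cyclin E2 (ENSG00000175305, chromosome 8, 94879770 to 94896678), had 19.4, 22.9 and 21.8 CPM in treated and 2.95, 2.19 and 6.32 CPM in control libraries. DMSO 12 was the highest control, still well under every treated library, and the log2 fold change was 2.50 ± 0.388 (adjusted p = 0.0147). Its relative CCNE1, cyclin E1, had 13.1, 17.0 and 16.0 CPM with fenbendazole and 11.7, 8.95 and 10.7 CPM in DMSO. The groups of CCNE1 did not overlap, but its log2 fold change of 0.56 ± 0.202 did not pass (adjusted p = 0.175). By FPKM, CCNE2 was 48.5% ± 5.14 of the summed E cyclins with fenbendazole and 20.1% ± 7.26 in DMSO (SD, n = 3 each), and these shares did not overlap.

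CDK2, the kinase partner of cyclins E and A (ENSG00000123374, chromosome 12, 55966781 to 55972789), had 50.4, 57.2 and 54.3 CPM with fenbendazole and 26.1, 25.2 and 23.8 CPM in DMSO. The controls, DMSO 11 included, lay close together, and the log2 fold change was 1.11 ± 0.139 (adjusted p = 0.00683). CDC25A, the phosphatase that activates CDK2 at the G1/S boundary (ENSG00000164045, chromosome 3, 48157146 to 48188417), had 16.4, 18.5 and 17.2 CPM in treated and 5.80, 5.97 and 5.50 CPM in control libraries, a difference of 3.01-fold (adjusted p = 0.00419). In the CDC25 family CDC25B still made up most of the summed FPKM, at 90.3% ± 0.380 with fenbendazole and 97.6% ± 0.808 in DMSO (SD, n = 3 each). CDC25A was 3.59% ± 0.124 of it with fenbendazole and 0.913% ± 0.189 in DMSO, and CDC25C 6.10% ± 0.473 with fenbendazole and 1.53% ± 0.655 in DMSO.

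**Figure D3:**
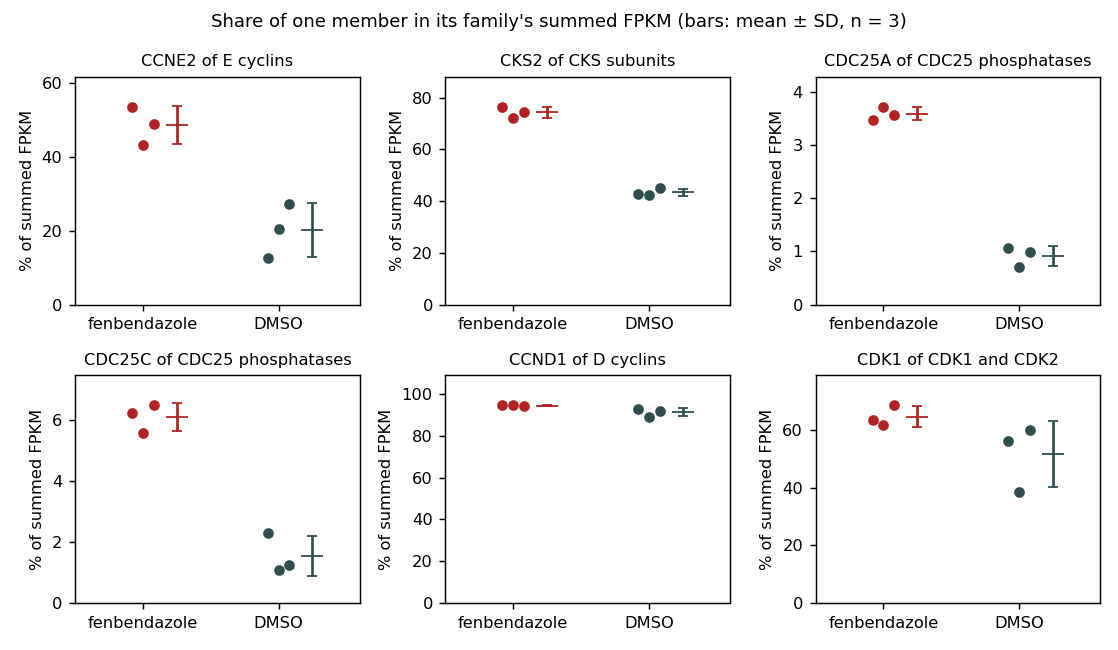
Share of 1 member in the summed deposited FPKM of its family, in percent, per library, with mean ± SD beside the points and fenbendazole left of DMSO (axes start at 0 and differ in scale). CCNE2, CKS2, CDC25A and CDC25C take a larger share in every treated library than in any control, while CCND1 is over 89% of the D cyclins throughout.

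Counts of some of these genes may include reads from genes annotated across them on the other strand, since the strand setting of the counting is not given in the sources used here. CCNA2 overlaps EXOSC9, whose log2 fold change was 0.83 ± 0.185 (adjusted p = 0.0558), with 66.2% as many counts as CCNA2. CCNE2 overlaps INTS8 (0.10 ± 0.207) and NDUFAF6 (0.35 ± 0.236), and CDC25C overlaps FAM53C (0.11 ± 0.186). INTS8 had 455% as many counts as CCNE2, and FAM53C 423% as many as CDC25C. PKMYT1 overlaps PAQR4 (0.62 ± 0.392), which had 143% as many counts. None of these neighbours passed the threshold. For CCNB1, CDK1 and CDKN3 the table lists no overlapping gene, and for CCNB2 and CKS2 the overlapping entries had under 1% of the member's counts. The part of shared reads in these results was not tested.

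In the G1 group CCND1 was the single member past the threshold. CCND1, cyclin D1 (ENSG00000110092, chromosome 11, 69641156 to 69654474), had 696, 685 and 658 CPM with fenbendazole and 393, 402 and 384 CPM in DMSO. The controls, DMSO 11 among them, were nearly level, and the log2 fold change was 0.79 ± 0.105 (adjusted p = 0.00843). CCND1 dominated the D cyclins, at 94.6% ± 0.232 of their summed FPKM with fenbendazole and 91.4% ± 1.96 in DMSO (SD, n = 3 each). CCND3, cyclin D3, had 17.5, 17.8 and 16.1 CPM in treated and 13.7, 23.3 and 14.8 CPM in control libraries, and CCND2, cyclin D2, had 0.728, 0.289 and 0.883 CPM in treated and 1.45, 0.702 and 0.372 CPM in control libraries. Their groups overlapped, and their log2 fold changes were -0.02 ± 0.238 and -0.41 ± 0.626 (adjusted p = 0.974 and 0.738). CCND2 is close to the level of a few counts per library, so its fold change is poorly determined.

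The G1 kinases did not pass. CDK4 had 63.4, 65.4 and 59.3 CPM with fenbendazole and 49.7, 103 and 48.4 CPM in DMSO, so that DMSO 11 was higher and DMSO 10 and 12 were lower than all treated libraries. The log2 fold change was -0.10 ± 0.294 (adjusted p = 0.867) with all libraries and 0.36 (adjusted p = 0.012) without DMSO 11, so its direction rests on that library. CDK4 also overlaps TSPAN31 and MARCHF9, with 45.7% and 20.8% as many counts. CDK6 had 118, 105 and 114 CPM in treated and 111, 67.6 and 110.3 CPM in control libraries, and here DMSO 11 was the low one. Its log2 fold change was 0.22 ± 0.203 (adjusted p = 0.551), and 0.03 without DMSO 11.

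CDK inhibitors did not pass the threshold in either direction. CDKN1A, which encodes p21, a target of p53, had 15.6, 16.3 and 15.0 CPM with fenbendazole and 11.9, 22.1 and 11.7 CPM in DMSO. The treated libraries lay between DMSO 11 above and DMSO 10 and 12 below, with a log2 fold change of 0.04 ± 0.277 (adjusted p = 0.951). CDKN1B, which encodes p27, was nearly level, at 41.1, 40.3 and 39.9 CPM in treated and 44.7, 40.4 and 41.5 CPM in control libraries, a log2 fold change of -0.06 ± 0.132 (adjusted p = 0.811). CDKN1C, which encodes p57, had 1.39, 1.44 and 0.707 CPM with fenbendazole and 2.28, 6.01 and 2.53 CPM in DMSO. The groups of CDKN1C did not overlap, and its log2 fold change of -1.63 ± 0.494 did not pass in edgeR (adjusted p = 0.122), while DESeq2 gave -1.63 (adjusted p = 0.0337). DMSO 11 was the highest control, and without it edgeR gave -1.02 (adjusted p = 0.109).

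Of the INK4 inhibitors of CDK4 and CDK6, CDKN2C (p18) had 29.9, 28.3 and 23.2 CPM with fenbendazole and 25.2, 32.0 and 21.9 CPM in DMSO. CDKN2D (p19) had 4.17, 3.18 and 2.71 CPM in treated and 1.39, 4.70 and 1.26 CPM in control libraries, where DMSO 11 was again the highest. Their log2 fold changes were 0.04 ± 0.199 and 0.42 ± 0.530 (adjusted p = 0.927 and 0.673), and without DMSO 11 that of CDKN2D was 1.33 (adjusted p = 0.0184). CDKN2A, which encodes p16 and p14ARF, had 0, 0 and 6 counts in fenbendazole 7, 8 and 9 and 1, 0 and 1 in DMSO 10, 11 and 12. CDKN2B (p15) had 1, 0 and 1 counts with fenbendazole and 0 in all DMSO libraries. Both were too low to be tested and no fold change is given.

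**Figure D4:**
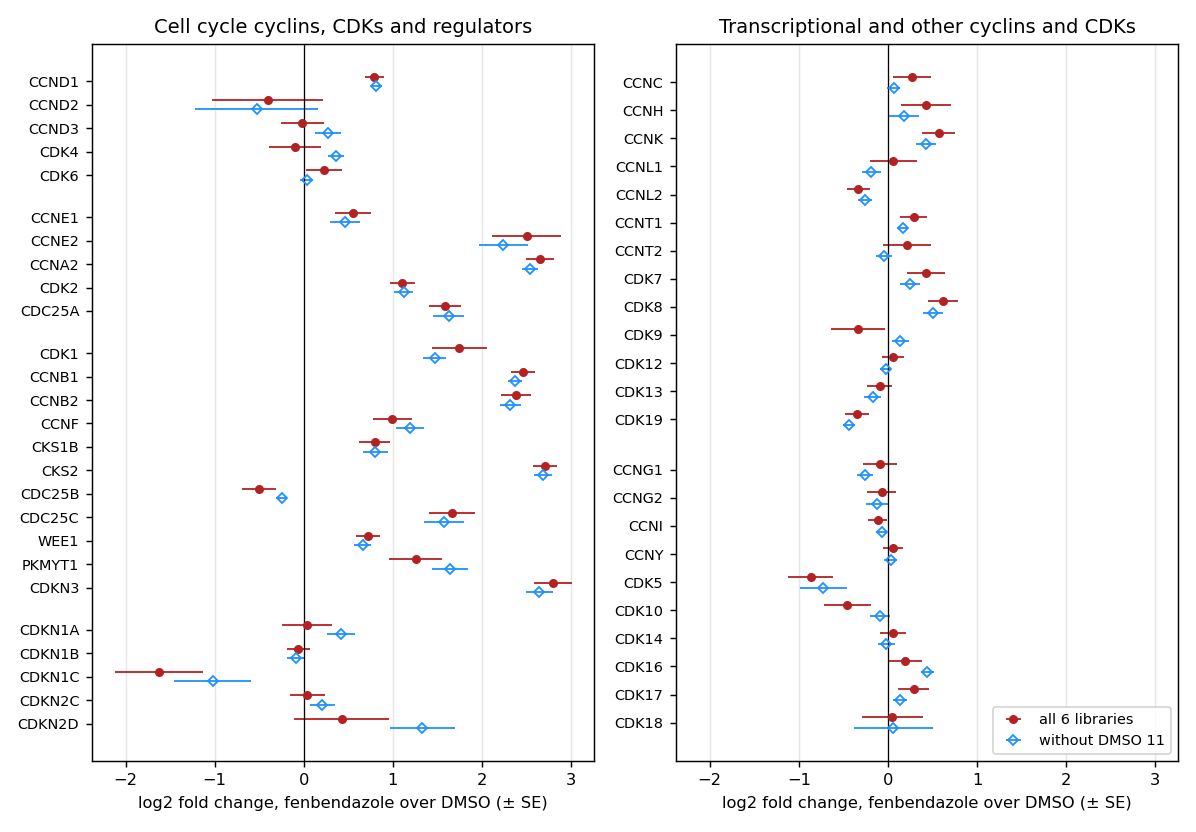
Log2 fold change, fenbendazole over DMSO, with its standard error for the 49 tested members in role order, from all 6 libraries (filled circles) and without DMSO 11 (open diamonds). G1/S, S and G2/M members other than CDC25B lie right of 0 in both fits, and the transcription, splicing and other members lie between -0.87 and 0.62 with all libraries.

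Cyclins and CDKs of transcription and splicing spanned log2 fold changes from -0.35 to 0.62, with 9 above and 4 below 0 (7 and 6 with upper-quartile scaling, where CCNL1 and CDK12 changed sign). CDK8, a kinase of the Mediator complex, had 33.9, 33.6 and 34.7 CPM with fenbendazole and 25.2, 18.5 and 22.9 CPM in DMSO, a log2 fold change of 0.62 ± 0.169 (adjusted p = 0.0931). Its paralog CDK19 had 121, 120.4 and 124 CPM in treated and 173, 134 and 159 CPM in control libraries, a log2 fold change of -0.35 ± 0.133 (adjusted p = 0.192). In neither gene did the groups overlap, and without DMSO 11 both were called, at 0.51 and -0.44 (adjusted p = 0.00558 and 0.000413). CCNC, the cyclin both bind, had 160.4, 166 and 169 CPM with fenbendazole and 149, 93.8 and 169 CPM in DMSO. DMSO 11 was the low library, and the log2 fold change of 0.27 ± 0.212 did not pass (adjusted p = 0.494).

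CCNK, cyclin K, the partner of CDK12 and CDK13, had 44.0, 41.1 and 48.8 CPM in treated and 34.7, 23.6 and 32.0 CPM in control libraries. Its log2 fold change was 0.57 ± 0.186 (adjusted p = 0.14), and CCDC85C on the other strand had 193% as many counts. The kinases CDK12 and CDK13 were at 0.06 ± 0.126 and -0.09 ± 0.143 (adjusted p = 0.815 and 0.734). CCNL2, cyclin L2 of the splicing machinery, had 174, 155 and 158 CPM with fenbendazole and 181, 224 and 209 CPM in DMSO, a log2 fold change of -0.33 ± 0.129 (adjusted p = 0.196). CCNL1 was at 0.06 ± 0.263 with overlapping groups. CDK7, the kinase that activates other CDKs and is part of TFIIH, had 43.6, 42.6 and 37.6 CPM in treated and 36.7, 21.9 and 33.2 CPM in control libraries. Its log2 fold change of 0.43 ± 0.213 did not pass (adjusted p = 0.285), and its partner CCNH, cyclin H, was at 0.43 ± 0.284. CDK9 and its partners CCNT1 and CCNT2, which together form P-TEFb and release paused polymerase, were at -0.34 ± 0.302, 0.29 ± 0.152 and 0.21 ± 0.269 (adjusted p = 0.547, 0.307 and 0.675). Without DMSO 11 the transcription and splicing members gave 2 calls higher (CCNK and CDK8) and 2 lower (CCNL2 and CDK19), in a fit that called 22.3% of all genes.

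The other cyclins and CDKs ranged from -0.87 to 0.29. CDK5, a kinase best known from neurons, had 3.11, 3.61 and 3.18 CPM with fenbendazole and 6.19, 7.06 and 4.76 CPM in DMSO. Its groups did not overlap, and the log2 fold change of -0.87 ± 0.250 did not pass (adjusted p = 0.106) in edgeR, while DESeq2 called it lower. SLC4A2, annotated across it on the other strand, had 1430% as many counts. CDK10 had 33.9, 34.0 and 31.0 CPM in treated and 32.7, 64.8 and 37.9 CPM in control libraries, with DMSO 11 far above the rest and a log2 fold change of -0.45 ± 0.261 (adjusted p = 0.35). CDK16, which binds cyclin Y, had 155, 154 and 146 CPM with fenbendazole and 118, 174 and 107 CPM in DMSO, and CDK17 had 102, 96.2 and 101 CPM with fenbendazole and 87.4, 62.2 and 94.9 CPM in DMSO. Their log2 fold changes were 0.19 ± 0.192 and 0.29 ± 0.173 (adjusted p = 0.592 and 0.367), and CDK16 was called without DMSO 11 (0.44, adjusted p = 0.0006). CCNI, cyclin I, was abundant, at 314, 323 and 327 CPM in treated and 353, 369 and 325 CPM in control libraries (log2 fold change -0.12 ± 0.111, adjusted p = 0.571). CCNY, CDK14, CDK18, CCNG1 and CCNG2 lay between -0.09 and 0.06, with adjusted p from 0.811 to 0.949, and CCNG1, a p53 target, was called lower without DMSO 11 (-0.26, adjusted p = 0.0473).

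Levels of different members were compared by the deposited FPKM. With fenbendazole the highest were CKS2 at 141 ± 1.41, CCND1 at 137 ± 6.05 and CCNB1 at 110.2 ± 4.93 FPKM (SD, n = 3), followed by CCNI and CDC25B at 100.4 ± 2.12 and 97.9 ± 4.69 FPKM. In DMSO the highest were CDC25B at 152 ± 48.6, CCNI at 115 ± 10.9 and CCND1 at 84.3 ± 5.74 FPKM, followed by CCNC and CCNL2 at 65.0 ± 17.6 and 61.5 ± 8.46 FPKM. CKS2 and CCNB1 stood at 22.9 ± 1.65 and 21.6 ± 2.09 FPKM in DMSO. The values of CKS2 and CCND1 with fenbendazole, those of CCNI and CDC25B in both groups, and those of CCNC and CCNL2 in DMSO differed by less than the SD of the more variable gene of each pair. CDK1 was at 38.9 ± 5.20 FPKM with fenbendazole and 11.7 ± 4.07 in DMSO, and made up 64.6% ± 3.62 with fenbendazole and 51.6% ± 11.4 in DMSO of the summed FPKM of CDK1 and CDK2.

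Related genes that are no members gave few calls. Of 18 other cyclins and CDKs 14 were tested and 2 rose: CCNA1, cyclin A1, at 178, 192 and 176 CPM with fenbendazole and 125, 124 and 125 CPM in DMSO (log2 fold change 0.55 ± 0.110, adjusted p = 0.0376), and CDK11A, a cyclin L partner, at 51.8, 44.9 and 49.2 CPM with fenbendazole and 32.0, 28.6 and 29.2 CPM in DMSO (0.70 ± 0.141, adjusted p = 0.0388). Reads of CDK11A may be shared with its near-identical copy CDK11B (0.51 ± 0.123, adjusted p = 0.0664). Of 24 genes of cyclin turnover and CDK partners 23 were tested and 1 rose. This was CDC20, which activates the ubiquitin ligase that destroys B cyclins, at 174, 183 and 169 CPM with fenbendazole and 22.0, 28.8 and 17.9 CPM in DMSO, a log2 fold change of 2.93 ± 0.194 (adjusted p = 0.000807). Of 15 partners of transcriptional CDKs 1 fell, AFF1, a scaffold of the super elongation complex, at 145, 148 and 157 CPM with fenbendazole and 292, 220.2 and 280.4 CPM in DMSO (-0.82 ± 0.141, adjusted p = 0.0214). Together 4 of 52 tested related genes were called, beside 4.03% of all tested genes. Without each of fenbendazole 7, 8 and 9 and DMSO 10 and 12 in turn, 1 gene of these lists was called higher and 0 lower, and without DMSO 11 the counts were 11 and 4 of 53 tested, in a fit that called 13.1% of all genes higher and 9.23% lower.

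Of the 13 members past the threshold, CCNA2, CDC25A, CCNB1, CCNB2, CKS2 and CDKN3 were called in every fit that left out 1 of the 6 libraries. The other 7 did not pass without fenbendazole 7, 8 or 9. Their adjusted p in these fits was 0.0792, 0.0762 and 0.0703 for CCND1, 0.0516, 0.0636 and 0.0648 for CDK2 and 0.0804, 0.0779 and 0.0935 for CDC25C. It was 0.0748, 0.078 and 0.0883 for CCNE2 and 0.0936, 0.0887 and 0.126 for CDK1, which also did not pass without DMSO 10 (0.0763 and 0.0678). For CKS1B it was 0.136, 0.23 and 0.219 and for WEE1 0.182, 0.137 and 0.19, and neither passed without DMSO 10 (0.101 and 0.0624) or DMSO 12 (0.0941 and 0.0733). Each of these members kept its direction in the fits with 5 libraries.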

How the data were processed

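Poly(A) RNA of 6 SKOV3 samples, 3 with fenbendazole and 3 with DMSO, was read from a table in which the authors deposited a whole-number count and an FPKM value per gene and library. The submitters' processing notes name GRCh38, CASAVA 1.8, StringTie 1.3.4b, HISAT2 2.1.0 and edgeR, with no roles. Counting settings, strand and annotation release: not given in the sources used here. The deposited FPKM served only to compare levels of different genes and as an alternative scale, log2(FPKM + 1).

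The test was edgeR 4.0.16 in R 4.3.3 on the counts as deposited, with filterByExpr (17363 of 61552 genes kept), TMM scaling, a robust quasi-likelihood fit and F test, and Benjamini-Hochberg adjustment over all genes tested, with a threshold of 0.05. CPM uses TMM-scaled library sizes. Alternatives were other scalings and filters, DESeq2 1.42.0, limma-voom 3.58.1, a test against 1.5-fold, FPKM, each library left out in turn and, added after seeing the data, GC and length offsets (97.8% of tested genes had both). No pair of libraries within a group was a duplicate (lowest chi-square per degree of freedom 5.34). Pairs across the groups were not compared in this way.

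The 51 members, their roles and the lists of related genes were chosen with earlier results of these data known. Values are given for the 5 members of each role with the smallest p, for every called member, and for CCND1, CCNE1, CDK4, CDK6, CDK2, CDKN1A, CDKN1B, CDKN2A and WEE1. CCND2, CCND3, CDKN2B, CCNC and the other genes named outside that rule were added after their values were seen. RefSeq promoters (GRCh38.p14) matched 44 members by symbol.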

Additional observations from a re-analysis of the deposited data

How the results depend on the processing

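Of the 13 called members, all 13 were called with median-of-ratios scaling, a filter of 1 CPM, DESeq2, limma-voom and without DMSO 11. CKS1B was lost with upper-quartile scaling (adjusted p = 0.0602) and with no filter (0.0612), and WEE1 with FPKM (0.0703) and with GC and length offsets (0.0881). All genes higher numbered 540, against 1155 with DESeq2, 200 in the test against 1.5-fold, 2048 with GC and length offsets and 139 to 2313 with 1 library left out. All genes lower numbered 160, against 808, 14, 1619 and 8 to 1633. Members higher numbered 13, against 7 in the 1.5-fold test and 6 to 20 with 1 library left out, and members lower 0, against 2 with DESeq2, 4 with offsets and 0 to 4 with 1 library left out. By role, G1 had 0 higher in the 1.5-fold test and 0 to 2 with 1 library left out, G1/S and S 2 to 4, and G2/M 4 in the 1.5-fold test and 4 to 10, with 0 to 1 lower. Inhibitors had 1 lower with DESeq2 and with offsets, and 0 to 1 higher with 1 library left out. Transcription and splicing had 1 higher with DESeq2, 2 higher and 2 lower with offsets, and 0 to 2 in each direction with 1 library left out. The others had 1 lower with DESeq2, 1 in each direction with offsets and 0 to 1 in each direction with 1 library left out. Related genes had 1 higher with upper-quartile scaling, no filter, the 1.5-fold test and FPKM, 10 with offsets and 1 to 11 with 1 library left out, and 2 lower with DESeq2, 0 in the 1.5-fold test, 4 with offsets and 0 to 4 with 1 library left out. CDK4 reversed without DMSO 11, at 0.36, and ranged from -0.28 to 0.36 over the libraries left out. Uncalled members changed sign in up to 7 cases (upper-quartile scaling). Fewer samples are fitted where a library is left out, yet without DMSO 11 more genes were called than with all libraries. Fewer changes can pass the 1.5-fold test. The causes of the other differences were not tested. No paired analysis was possible because no replicate number recurs between the groups. The few counts of CDKN2A, CDKN2B and CCND2 limit what can be said of their change. Offsets for GC and length were chosen after seeing the data.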

Other observations

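Counts near CDKN2A and CDKN2B were read from the same table, in a window of 500000 bases to each side on chromosome 9 that was chosen after the values were seen. MTAP, an enzyme of methionine salvage whose gene neighbours CDKN2A, had 1455, 1333 and 1856 counts in fenbendazole 7, 8 and 9 and 1444, 1252 and 1099 counts in DMSO 10, 11 and 12. CDKN2A had 0, 0 and 6 counts with fenbendazole and 1, 0 and 1 in DMSO, and CDKN2B 1, 0 and 1 with fenbendazole and 0 in each DMSO library. The antisense transcript CDKN2B-AS1 had 0 counts with fenbendazole and 0, 1 and 1 in DMSO. On the far side, DMRTA1 had 13, 10 and 8 counts with fenbendazole and 0, 14 and 10 in DMSO, and beyond MTAP the host transcript MIR31HG had 232, 245 and 292 counts with fenbendazole and 327, 435 and 224 in DMSO. Near-zero counts thus ran over CDKN2A, CDKN2B and CDKN2B-AS1 in both groups, next to MTAP. DMRTA1 on the far side was itself low, with 0 counts in DMSO 10, so no far edge of this stretch can be placed. RNA counts do not show whether the genes are present in the genome of these cells.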
